A study of Homo sapiens with 12 samples.

Results

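BxPC-3 is an established cell line from a human pancreatic ductal adenocarcinoma. The comparison described here sets BxPC-3 cultures starved of serum for 48 h, a treatment used to make the cells grow primary cilia, against BxPC-3 cultures kept in ordinary medium. It takes the 6 of the 12 libraries in the series whose labels name this line, 3 labelled as induced and 3 labelled as control, and fits these 6 libraries alone. The series text puts cilia on 78% of starved and on 5% of control BxPC-3 cells, with no error given. The labels name no drug, gene change or single clone in either group, so both are the unmodified line as far as they say. Serum loss and cilium growth came together in every starved library and cannot be told apart. Whether the libraries of a group stem from different cultures is not stated in the labels, so every p-value reflects library-to-library spread that could be purely technical.

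The level of each gene is given as FPKM, fragments scaled to transcript length and to the library's own total. Of 60564 genes in the deposited table, 28217 were listed at 0 in all 6 libraries. The test covered 11288 genes that reached an FPKM of 1 in 3 or more of the 6 libraries, and 10034 of them are protein coding. A log2 change is the mean of log2(FPKM + 1) in starved libraries minus that in control libraries, a scale on which low genes appear to differ by less than they do in FPKM. Per-library values are listed for libraries 1, 2 and 3 of a group.

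The primary cilium is a single antenna of the cell surface that grows from the basal body when a cell leaves the cell cycle, and serum withdrawal is the common way to provoke it in culture. Serum withdrawal also takes away growth factors and lipids. The hypoxia programme is a separate response, in which hypoxia-inducible factors (HIF) switch on genes for pH control, glucose use and collagen processing when the prolyl hydroxylases that mark them for destruction are inactive. Its best known surface product, carbonic anhydrase IX, is widely used as a marker of hypoxic tumour tissue. Ductal tumour cells can in addition make the antimicrobial and acute phase proteins of an inflamed epithelium, and BxPC-3 also makes keratins and cornified envelope proteins of squamous epithelium.

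Within each group, libraries 2 and 3 resembled each other more than library 1. Across the tested genes, which are not independent, Pearson's r between libraries 2 and 3 was 0.986 in starved and 0.9855 in control cultures. Library 1 had r of 0.9391 and 0.9439 with the other starved libraries, and of 0.9449 and 0.938 with the other control libraries. The libraries labelled starved 1 and control 1 had r = 0.9616 with each other. Changes are therefore given over all 6 libraries and also within numbers 2 and 3 and within number 1. Read counts were not used here, and the spacing of low values put the relative depth of the other 5 libraries at 0.785 to 0.94 of that of control library 3. The share of summed FPKM in mitochondrially encoded genes was 18.6% to 22.3% in starved libraries and 24.6% to 28.8% in control libraries.

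Marker genes were checked against the label of the line. SMAD4, a tumour suppressor known to be deleted in BxPC-3, was listed at 0 in all 6 libraries. CDKN2A, a cell cycle inhibitor deleted in the same line, had 0.1003, 0 and 0.0118 FPKM in starved libraries and was listed at 0 in control libraries. KRT19 and KRT7, keratins of duct epithelium, stood at 395.5 to 1088 FPKM in starved and at 463.4 to 912 FPKM in control libraries. Of 10 fibroblast markers 8, of 5 endothelial markers all 5, and of 9 acinar and endocrine markers 8 stayed under 1 FPKM in every library. The summed level of 8 immune cell markers was 9.01 to 13.2 FPKM in starved and 5.65 to 6.22 FPKM in control libraries. CD14 and CD68 made up most of it, while the leukocyte antigen PTPRC reached at most 0.00981 FPKM and the B cell antigen MS4A1 was listed at 0 throughout.

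A small set of genes was higher in all 3 starved libraries than in any control library and passed the test, led by CA9, the hypoxia-induced carbonic anhydrase IX. Beside it were genes of collagen processing (LOXL2, P4HA2, COL5A1), of oxidative protein folding (ERO1A), of innate defence (CFB, CD14) and of the epithelial surface and its secretions (ALPP, ALPPL2, SLC6A14, SPRR1B, CST1, WFDC5). Over all 6 libraries 13 genes rose and 1 fell at an adjusted p of 0.05 (limma, Benjamini-Hochberg), which is 0.115% and 0.00886% of the tested genes (0.124% together). All 14 genes had starved and control values that did not overlap, as did 17.9% of all tested genes. CST1, WFDC5, ALPPL2 and AC005324.3 stayed under 1 FPKM in every library of their lower group. They passed the filter only through the group where they were high, so their separation adds no evidence. The same holds for S100A7, COL6A1 and SLC7A2 below, and the counts of separated genes below can include such genes. Separated values force the same sign within numbers 2 and 3 and within number 1, so the shared sign of all 14 adds no evidence. Without an adjustment, 1001 genes (8.87%) had p under 0.05 with a higher level in starved cultures and 443 (3.92%) with a lower one. In bulk cultures fewer cells of a kind and less RNA per cell cannot be told apart, and this holds for every change below. The count of 14 depended on the libraries used: it was 196 without starved library 1, 880 without control library 1, and 1 without any single library of the other 4. With mitochondrially encoded genes left out and every library also rescaled to a common total, 3 genes rose and 1 fell (CA9, LOXL2, ALPP and AC005324.3).

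**Figure D1:**
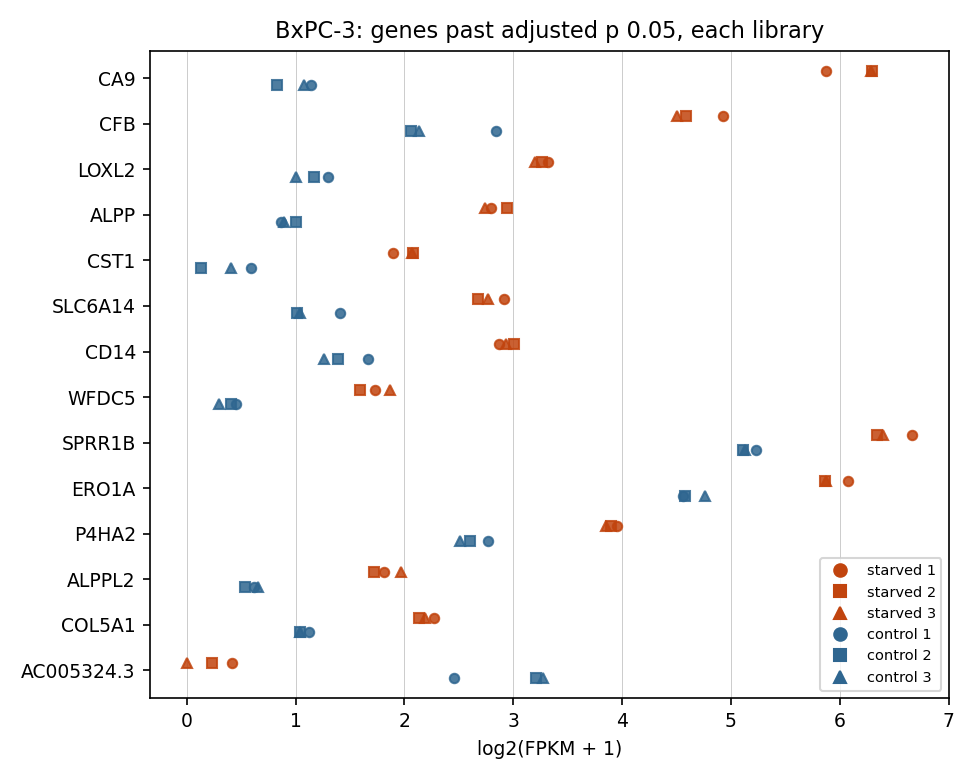
Each of the 14 genes past an adjusted p of 0.05 is drawn as 6 points on log2(FPKM + 1), starved libraries in orange and control libraries in blue, with the library number as the marker shape. The points of the groups do not overlap for any gene, and CA9 shows the widest gap, with 57.5 to 77.5 FPKM in starved and 0.783 to 1.21 FPKM in control libraries.

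CA9 encodes carbonic anhydrase IX, a membrane enzyme that turns carbon dioxide into bicarbonate and acid outside the cell (ENSG00000107159, GRCh38 chromosome 9, 35673856 to 35681159, plus strand). It had 57.5, 77.5 and 77.2 FPKM in starved libraries, against 1.21, 0.783 and 1.11 FPKM in control libraries. Every starved library was thus far above every control library, and library 1 behaved like the others. The means were 70.75 ± 11.48 FPKM in starved and 1.03 ± 0.224 FPKM in control cultures (SD, n = 3 each), a 68.4-fold ratio. CA9 rose by 5.13 on the log2 scale with a standard error of 0.18 (adjusted p = 9.297e-05, limma with Benjamini-Hochberg). The change was 5.34 within numbers 2 and 3 and 4.72 within number 1.

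Genes that build and stabilise collagen followed. LOXL2, an extracellular amine oxidase that crosslinks collagen (GRCh38 chromosome 8, 23297189 to 23425328), had 9.00, 8.61 and 8.22 FPKM in starved libraries, against 1.46, 1.25 and 1.00 FPKM in control libraries. It rose 6.96-fold by the ratio of means, or 2.11 ± 0.15 (SE) on the log2 scale (adjusted p = 0.00702, limma with Benjamini-Hochberg), and by nearly the same amount within numbers 2 and 3 (2.15) and within number 1 (2.02). LOXL2 overlaps ENTPD4 on the same strand, whose levels were 4.32 to 7.95 FPKM in starved and 5.33 to 5.46 FPKM in control libraries. P4HA2, a catalytic subunit of the prolyl hydroxylase that hydroxylates collagen in the endoplasmic reticulum, had 14.5, 13.95 and 13.4 FPKM in starved libraries, against 5.82, 5.07 and 4.68 FPKM in control libraries. Its log2 rise was 1.28 with a standard error of 0.15 (adjusted p = 0.0374, limma). COL5A1, a chain of the fibril-forming collagen V, had 3.84, 3.39 and 3.57 FPKM in starved libraries, against 1.18, 1.05 and 1.06 FPKM in control libraries, a log2 rise of 1.13 (adjusted p = 0.0441, limma). Neither gene had a starved library near the control range. ERO1A, the oxidase that recharges protein disulfide isomerase for disulfide bond formation, had 66.6, 57.4 and 57.7 FPKM in starved libraries, against 22.6, 22.8 and 26.1 FPKM in control libraries. It rose by 1.31 on the log2 scale with a standard error of 0.15 (adjusted p = 0.0374, limma).

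Innate defence genes formed the next group. CFB, complement factor B of the alternative pathway (ENSG00000243649), had 29.5, 23.1 and 21.7 FPKM in starved libraries, against 6.17, 3.17 and 3.38 FPKM in control libraries, and rose by 2.33 on the log2 scale with a standard error of 0.25 (adjusted p = 0.0336, limma). Its locus overlaps C2 and the unnamed annotation AL645922.1 on the same strand, neither of which passed the filter on low values. CD14, a receptor for bacterial lipopolysaccharide that monocytes and many epithelia carry, had 6.31, 7.06 and 6.64 FPKM in starved libraries, against 2.18, 1.63 and 1.39 FPKM in control libraries. CD14 rose by 1.497 on the log2 scale (adjusted p = 0.0354, limma). It counts among the immune cell markers summed above, and CD68, the other marker of that list that was tested, had 6.22, 1.78 and 2.41 FPKM in starved libraries, against 3.80, 3.85 and 3.34 FPKM in control libraries. PTPRC, ITGAM and CSF1R, which define leukocytes and macrophages, stayed under 1 FPKM in every library.

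Surface and secreted epithelial proteins made up most of the rest. ALPP, placental alkaline phosphatase (GRCh38 chromosome 2, 232378534 to 232382889), had 5.925, 6.68 and 5.70 FPKM in starved libraries, against 0.8215, 1.01 and 0.861 FPKM in control libraries, a log2 rise of 1.90 with a standard error of 0.14 (adjusted p = 0.00732, limma). Its neighbour and close paralog ALPPL2 had 2.52, 2.30 and 2.92 FPKM in starved libraries, against 0.533, 0.452 and 0.574 FPKM in control libraries, a log2 rise of 1.23 (adjusted p = 0.0393, limma). The genes are nearly identical in sequence, so the division of reads between them is uncertain. SLC6A14, a broad importer of amino acids, had 6.55, 5.40 and 5.80 FPKM in starved libraries, against 1.65, 1.025 and 1.06 FPKM in control libraries, and rose by 1.63 (adjusted p = 0.0336, limma). SPRR1B, a small proline-rich precursor of the cornified envelope, was the most abundant of the 13, with 100.6, 80.0 and 83.0 FPKM in starved libraries, against 36.55, 33.5 and 34.0 FPKM in control libraries. SPRR1B rose by 1.31 (adjusted p = 0.0393, limma). The cysteine protease inhibitor CST1 had 2.71, 3.23 and 3.205 FPKM in starved libraries, against 0.504, 0.0969 and 0.325 FPKM in control libraries, and rose by 1.64 (adjusted p = 0.0336, limma). CST1 shares most of its sequence with CST2 and CST4, so its single value is uncertain. WFDC5, a WAP-domain protein, had 2.33, 2.02 and 2.65 FPKM in starved libraries, against 0.365, 0.323 and 0.226 FPKM in control libraries, and rose by 1.35 (adjusted p = 0.0354, limma).

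AC005324.3 was the only gene that fell. It (ENSG00000251537, GRCh38 chromosome 17, 15571491 to 15651653, minus strand) is annotated as protein coding and carries no established name. The gene had 0.334, 0.172 and 0 FPKM in starved libraries, against 4.47, 8.23 and 8.64 FPKM in control libraries. AC005324.3 fell by 2.76 on the log2 scale with a standard error of 0.25 (adjusted p = 0.0206, limma with Benjamini-Hochberg), by 3.12 within numbers 2 and 3 and by 2.04 within number 1. It lies over TRIM16 and CDRT1 on the same strand. TRIM16 had 14.9, 16.1 and 20.3 FPKM in starved libraries, against 13.1, 26.9 and 20.05 FPKM in control libraries, with overlapping groups (adjusted p = 0.796, limma), and how reads were divided between these annotations is not given in the sources used here.

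Hypoxia response genes lay mostly higher in starved cultures. Of 34 genes on a list of HIF targets, 30 were tested; 3 rose (CA9, ERO1A and P4HA2), none fell and 27 did not pass the adjusted threshold. Starved values lay wholly above control values for 19 of the 30 and wholly below for none, beside 13.0% and 4.89% of all tested genes, the shares against which every count of separated genes below is to be read. The median log2 change of the 30 was 0.77, and 26 had a positive value, beside a median of 0.077 and 60.05% positive among all tested genes. Within numbers 2 and 3 the median was 0.58, and within number 1 it was 1.13. For 25 of the 30 the change was positive in both sets and for none was it negative in both. Of all 11288 tested genes, 3562 were positive in both sets and 1663 negative in both.

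Among the HIF targets that did not pass, those with separated groups span pH control, lipid handling, oxygen sensing and matrix. CA12, a second surface carbonic anhydrase, had 6.68, 8.97 and 13.5 FPKM in starved libraries, against 2.52, 0.758 and 0.894 FPKM in control libraries (log2 change 2.19, adjusted p = 0.0803, limma). ANGPTL4, a secreted inhibitor of lipoprotein lipase, had 11.2, 23.9 and 22.9 FPKM in starved libraries, against 2.00, 5.29 and 5.16 FPKM in control libraries (log2 change 1.99, adjusted p = 0.136, limma). EGLN3, one of the oxygen-sensing hydroxylases that act on HIF, had 30.7, 5.62 and 5.36 FPKM in starved libraries, against 2.36, 1.67 and 1.68 FPKM in control libraries. Its starved library 1 was far above the other 2, and its log2 change was 1.28 within numbers 2 and 3 and 3.24 within number 1 (adjusted p over all 6 libraries = 0.286, limma). NDRG1, a stress-induced gene used as a hypoxia marker, had the same shape, with 61.1, 27.2 and 26.5 FPKM in starved libraries, against 11.6, 20.5 and 19.6 FPKM in control libraries, and log2 changes of 0.40 within numbers 2 and 3 and 2.30 within number 1. ADM, the vasodilator peptide adrenomedullin, had 25.1, 21.6 and 22.1 FPKM in starved libraries, against 14.8, 12.2 and 11.9 FPKM in control libraries, with like changes in both sets (0.81 and 0.72). The mitophagy receptor BNIP3L, the adenylate kinase AK4 and the mitochondrial protein FAM162A were also separated, with log2 changes of 1.08, 0.95 and 0.96.

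Of the collagen-modifying members of the same list, PLOD2 and LOX lay close to the threshold and P4HA1 did not. PLOD2, a lysyl hydroxylase of collagen, had 14.1, 12.4 and 11.9 FPKM in starved libraries, against 5.36, 5.44 and 5.66 FPKM in control libraries (log2 change 1.08, adjusted p = 0.0574, limma). LOX, the founding lysyl oxidase, had 3.18, 2.95 and 2.63 FPKM in starved libraries, against 0.735, 0.857 and 1.09 FPKM in control libraries (log2 change 1.05, adjusted p = 0.0624, limma). P4HA1, the sister of P4HA2, had 45.0, 19.3 and 20.9 FPKM in starved libraries, against 11.1, 10.5 and 7.73 FPKM in control libraries (log2 change 1.36, adjusted p = 0.207, limma). All 3 had every starved library above every control library. With P4HA2 and LOXL2, they are enzymes that hydroxylate or crosslink collagen.

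Not every HIF target lay higher in starved cultures. VEGFA, the main angiogenic growth factor under HIF control, had 10.2, 7.48 and 7.55 FPKM in starved libraries, against 6.29, 13.3 and 13.5 FPKM in control libraries. Its log2 change was -0.76 within numbers 2 and 3 and 0.62 within number 1. The glycolytic regulator PFKFB3, the transcriptional repressor BHLHE40 and the ankyrin repeat gene ANKRD37 likewise had values of -0.78, -0.72 and -0.85 within numbers 2 and 3, and of 1.32, 0.76 and 0.92 within number 1. The most abundant members, the glucose transporter SLC2A1 and the mTOR inhibitor DDIT4, had overlapping groups, with log2 changes of 0.32 (adjusted p = 0.578, limma) and 0.30 (adjusted p = 0.840, limma). Of the 30 members, 12 had a smaller change within numbers 2 and 3 than within number 1 and 1 had a larger one. Among all tested genes 14.6% and 12.7% did. These counts use the threshold of the test of that difference described below, which measures only the spread between libraries 2 and 3. The HIF subunits and their regulators gave 0 of 7 tested genes past the threshold in the fit over all 6 libraries, and none was separated. HIF1A, the oxygen-regulated subunit, had 56.0, 59.7 and 63.6 FPKM in starved libraries, against 46.8, 51.5 and 58.3 FPKM in control libraries (log2 change 0.20, adjusted p = 0.607, limma). EPAS1, which encodes HIF2 alpha, and ARNT, the shared partner, had log2 changes of 0.20 and 0.07.

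**Figure D2:**
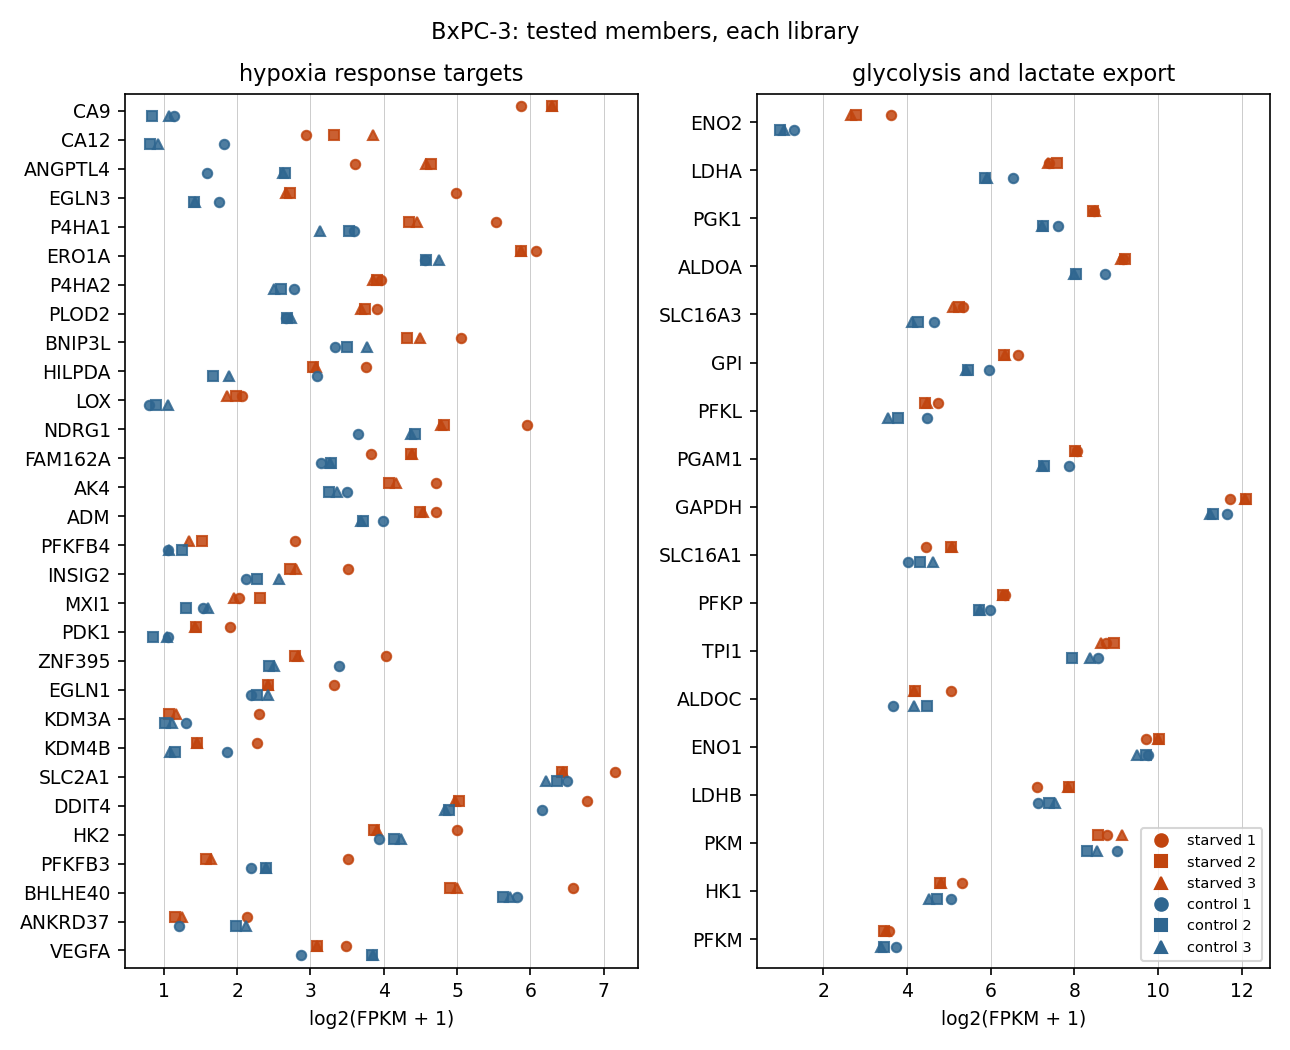
All 30 tested HIF targets (left) and all 18 tested genes of glycolysis and lactate export (right) are drawn on log2(FPKM + 1), 1 point per library, starved libraries in orange and control libraries in blue. The upper part of each panel shows separated groups, and the lower part of the left panel (VEGFA, ANKRD37, BHLHE40, PFKFB3) shows starved library 1 above and starved libraries 2 and 3 below their control counterparts.

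The DNA before these genes is shown because HIF binds a short core, ACGTG or GCGTG, near many of its targets. Windows of 250 bases that end just before the RefSeq gene start were taken from RefSeq (GRCh38.p14), printed on the gene's strand with each core match in capitals. Both strands were searched, so a core on the other strand appears as its reverse complement, and matches to the cores can overlap. RefSeq's starts differ from those of GENCODE behind the gene coordinates above. The windows of CA9, ALPP, SPRR1B, COL5A1 and LOX therefore reach into the GENCODE gene. Those of CFB, CD14, ERO1A, PGK1 and P4HA2 lie wholly inside the gene. A window was matched for 9 of the 13 genes that rose, and 3 of the 9 (33.3%) held a core, in CA9, ERO1A and COL5A1. That share lay below the 59.1% of windows of tested genes and the 43.2% of all windows. LOX and PGK1, separated but not past the threshold, are shown beside them as windows with several matches. CA9 lies at chr9:35673678-35673927 on the plus strand, ERO1A at chr14:52695559-52695808 on the minus strand, COL5A1 at chr9:134641553-134641802 on the plus strand, LOX at chr5:122078260-122078509 on the minus strand, and PGK1 at chrX:78103998-78104247 on the plus strand.
CA9: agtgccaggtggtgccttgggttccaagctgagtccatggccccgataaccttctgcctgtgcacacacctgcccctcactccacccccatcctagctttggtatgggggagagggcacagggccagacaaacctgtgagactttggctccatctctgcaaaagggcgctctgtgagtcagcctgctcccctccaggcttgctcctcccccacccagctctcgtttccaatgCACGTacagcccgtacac
ERO1A: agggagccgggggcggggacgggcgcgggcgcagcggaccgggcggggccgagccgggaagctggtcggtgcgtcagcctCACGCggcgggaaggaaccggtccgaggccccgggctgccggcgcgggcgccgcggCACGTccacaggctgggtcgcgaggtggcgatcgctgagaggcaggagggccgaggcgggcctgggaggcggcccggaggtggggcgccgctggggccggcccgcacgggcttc
COL5A1: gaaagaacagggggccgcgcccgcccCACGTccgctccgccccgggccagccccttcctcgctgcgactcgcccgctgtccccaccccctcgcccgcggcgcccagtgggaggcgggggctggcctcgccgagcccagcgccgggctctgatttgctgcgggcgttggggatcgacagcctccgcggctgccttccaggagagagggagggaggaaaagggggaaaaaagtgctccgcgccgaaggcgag
LOX: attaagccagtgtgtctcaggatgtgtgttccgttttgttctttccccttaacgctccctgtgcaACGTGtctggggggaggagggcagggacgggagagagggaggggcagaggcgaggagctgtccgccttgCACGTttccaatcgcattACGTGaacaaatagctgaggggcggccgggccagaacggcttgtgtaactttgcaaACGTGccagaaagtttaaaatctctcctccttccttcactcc
PGK1: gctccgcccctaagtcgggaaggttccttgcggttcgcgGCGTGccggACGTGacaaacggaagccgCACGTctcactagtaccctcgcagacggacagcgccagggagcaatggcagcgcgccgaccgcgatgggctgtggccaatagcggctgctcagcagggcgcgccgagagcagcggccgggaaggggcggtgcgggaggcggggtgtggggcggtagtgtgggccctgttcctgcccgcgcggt

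In the CA9 window the only match begins 18 bases before the RefSeq gene start, which is inside the gene as GENCODE draws it. ERO1A has matches beginning 170 and 114 bases before its RefSeq start, COL5A1 has 1 beginning 224 bases before, LOX has 4 and PGK1 has 3, while the P4HA2 window holds none. Of the 25 tested HIF targets with a window, 20 (80%) held a core, and of 17 tested glycolysis genes 9 (52.9%) did. The same share was 59.1% of 8025 windows of tested genes and 43.2% of all 35116 windows. ACGTG alone was held by 60% of the HIF target windows and by 24.5% of those of tested genes. GCGTG was held by 52% and 46.9%, a much smaller contrast. HIF targets include genes first recognised by such sites, and a match describes letters in a window, not a bound site.

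Glycolysis, the breakdown of glucose to pyruvate, lay mostly higher in starved cultures without any gene passing the threshold. Of 18 genes for glycolytic enzymes and lactate transporters, all tested, none rose or fell. For 10 of the 18 the starved values lay wholly above the control values and for none wholly below, beside 13.0% and 4.89% of all tested genes. The median log2 change was 0.56, with 17 of 18 positive beside 60.05% of all tested genes, and it was 0.70 within numbers 2 and 3 and 0.31 within number 1. ENO2, an enolase isoform first known from neurons, had 11.4, 5.86 and 5.39 FPKM in starved libraries, against 1.46, 0.974 and 1.10 FPKM in control libraries (log2 change 1.91, adjusted p = 0.0595, limma). LDHA, the lactate dehydrogenase subunit that favours lactate, had 168, 190.5 and 163 FPKM in starved libraries, against 92.3, 57.3 and 59.1 FPKM in control libraries (log2 change 1.34, adjusted p = 0.0845, limma). PGK1, phosphoglycerate kinase, had 351, 347 and 357 FPKM in starved libraries, against 196, 152.5 and 149 FPKM in control libraries (log2 change 1.09, adjusted p = 0.0713, limma). In all 3 the control library 1 lay highest among the controls and still below every starved library. The lactate exporter SLC16A3 and the isomerase GPI had log2 changes of 0.88 and 0.82. The most abundant enzymes, GAPDH, ENO1 and ALDOA, had changes of 0.57, 0.26 and 0.90.

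S100A7, the antimicrobial psoriasin, had 10.2, 123 and 107.8 FPKM in starved libraries, against 0.549, 0.466 and 0 FPKM in control libraries. Its log2 change was 5.34 (adjusted p = 0.0845, limma), with 6.58 within numbers 2 and 3 and 2.86 within number 1, so that starved library 1 lay well below the other 2. Of 21 tested genes for S100 proteins and epithelial antimicrobials, none passed the threshold, 11 had starved values wholly above and 3 wholly below the control values. The median log2 change was 0.84, with 0.47 within numbers 2 and 3 and 0.28 within number 1. PI3, the elastase inhibitor elafin of inflamed epithelia, had 490, 584 and 594 FPKM in starved libraries, against 116, 28.0 and 30.05 FPKM in control libraries (log2 change 3.56 with a standard error of 0.50, adjusted p = 0.0595, limma). All 3 starved libraries were high, and control library 1 stood above the other controls. S100A9, a subunit of calprotectin, had 451, 1601 and 1413 FPKM in starved libraries, against 263, 138 and 125 FPKM in control libraries, with starved library 1 between the others and the controls. DUOX2, a hydrogen peroxide-forming oxidase of mucosal defence, had 14.3, 7.73 and 7.82 FPKM in starved libraries, against 3.80, 0.762 and 0.782 FPKM in control libraries (log2 change 2.10, adjusted p = 0.161, limma). The abundant S100A11 and S100A2 had overlapping groups, with log2 changes of 0.00 and -0.18. DEFB1, a beta-defensin made constantly by epithelia, went the other way, with 6.56, 2.99 and 4.22 FPKM in starved libraries, against 9.14, 18.6 and 14.1 FPKM in control libraries (log2 change -1.41, adjusted p = 0.181, limma).

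Complement and cytokine genes were less uniform. Of 12 tested complement genes, CFB rose, none fell, and 5 were separated upward. C3, the central complement protein, had separated groups, with 82.0, 128 and 131 FPKM in starved libraries, against 50.3, 33.3 and 31.8 FPKM in control libraries (log2 change 1.54, adjusted p = 0.0916, limma). CD59, which protects cells from complement, had a log2 change of 0.60. Of 23 tested chemokine and cytokine genes none passed, 9 were separated upward and none downward, with a median of 0.60, 0.73 within numbers 2 and 3 and 0.30 within number 1. CXCL1, a neutrophil attractant, had 34.7, 110 and 112 FPKM in starved libraries, against 24.5, 9.88 and 7.34 FPKM in control libraries (log2 change 2.53, adjusted p = 0.181, limma). IL1B, the inflammatory cytokine interleukin 1 beta, had 21.4, 145 and 142.5 FPKM in starved libraries, against 22.5, 98.0 and 97.7 FPKM in control libraries, so that library 1 was low in both groups. CXCL8 and CCL20, chemokines for neutrophils and for lymphocytes, were arranged in the same way with log2 changes of 0.37 and 0.60. The regulators of NF-kB, the factor that drives many of these genes, gave 0 of 17 past the threshold. Their median was -0.11, and its sign turned without starved library 1. NFKBIA, the NF-kB inhibitor, had log2 changes of 1.81 within numbers 2 and 3 and -0.33 within number 1, and TNFAIP3, a feedback deubiquitinase, had -0.99 and 0.20.

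The squamous and protease inhibitor lists each held 1 gene that rose, SPRR1B and CST1. Of 29 tested squamous and keratin genes, 7 were separated upward and 2 downward, beside 13.0% and 4.89% of all tested genes, and the median log2 change was -0.12, whose sign turned without starved library 2. That median was -0.22 within numbers 2 and 3 and 0.28 within number 1. KRT16, a keratin of activated squamous epithelium, had 7.44, 8.25 and 8.15 FPKM in starved libraries, against 3.29, 2.56 and 3.17 FPKM in control libraries (log2 change 1.16, adjusted p = 0.0572, limma). KRT13, a keratin of mucosal squamous epithelium, had 175, 41.8 and 41.5 FPKM in starved libraries, against 175, 171 and 162 FPKM in control libraries, so that only starved libraries 2 and 3 were low. KRT17, the most abundant keratin of the list, had a log2 change of -0.18. Of 19 tested cystatins and serine protease inhibitors or their partners, 10 were separated upward and none downward, with a median of 0.55. SERPINB7, an intracellular serine protease inhibitor of epithelia, had 14.4, 20.3 and 20.5 FPKM in starved libraries, against 4.63, 6.67 and 6.69 FPKM in control libraries (log2 change 1.47, adjusted p = 0.0595, limma). SERPINB3, a squamous cell carcinoma antigen, had log2 changes of -1.19 within numbers 2 and 3 and 2.07 within number 1.

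Of 23 tested mesenchymal and matrix genes, LOXL2 and COL5A1 rose, none fell, 9 were separated upward and 1 downward. The median log2 change was 0.49, with 0.24 within numbers 2 and 3 and 0.63 within number 1. COL6A1, a chain of the microfibrillar collagen VI, had 1.40, 2.87 and 2.88 FPKM in starved libraries, against 0.114, 0.0806 and 0.0352 FPKM in control libraries (log2 change 1.62, adjusted p = 0.0593, limma). FN1, fibronectin, had 3.11, 3.285 and 4.58 FPKM in starved libraries, against 1.72, 1.44 and 1.45 FPKM in control libraries (log2 change 0.86, adjusted p = 0.154, limma). The matrix protease MMP14 had a log2 change of 0.11. VIM, the mesenchymal intermediate filament, had overlapping groups with 9.92, 8.92 and 11.5 FPKM in starved libraries, against 4.41, 10.1 and 7.11 FPKM in control libraries. Of the fibroblast markers, COL1A2 and COL3A1 stayed under 1 FPKM in both groups, and COL1A1 had 1.09, 0.750 and 0.708 FPKM in starved libraries, against 1.29, 1.45 and 1.36 FPKM in control libraries.

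On the lower side of the comparison, AC005324.3 alone passed the adjusted threshold. Beside it, 14 genes were named by size of change among those with an established symbol, separated groups, an unadjusted p under 0.05 and the same sign in both sets. IGFBP5, a secreted binder of insulin-like growth factors, had 2.76, 1.43 and 1.10 FPKM in starved libraries, against 8.89, 48.5 and 50.1 FPKM in control libraries (log2 change -3.45, adjusted p = 0.109, limma). MYADM, a membrane protein of lipid rafts, had 8.97, 6.68 and 9.35 FPKM in starved libraries, against 12.75, 119 and 120.3 FPKM in control libraries (log2 change -2.66, adjusted p = 0.283, limma). AQP3, a channel for water and glycerol, had 204, 47.4 and 46.4 FPKM in starved libraries, against 224, 305 and 224 FPKM in control libraries (log2 change -1.68, adjusted p = 0.311, limma). In all 3 genes the gap between the groups was wider within numbers 2 and 3 than within number 1, where MYADM and AQP3 differed little (log2 changes of -0.46 and -0.14) and IGFBP5 by -1.40. The cystine importer SLC7A11, the epithelial transcription factors OVOL1 and CEBPA, the interleukin 6 receptor IL6R and the clock gene PER2 had log2 changes of -1.40, -1.52, -1.52, -1.44 and -1.38. The cationic amino acid importer SLC7A2, the substrate adaptor ASB1, the calcium channel regulator ITPRIP and DEFB1 had -2.14, -1.75, -1.61 and -1.41. For ASB1 and ITPRIP the difference between the sets did not pass the threshold. The readthrough annotations SENP3-EIF4A1 (log2 change -2.98) and RPL17-C18orf32 (3.25) share exons with their parent genes, so their values are uncertain, as is that of the mitochondrial transfer RNA MT-TH (-1.36), which is shorter than a usual fragment.

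No cell cycle gene fell at the adjusted threshold, and most had positive values. Of 45 tested genes of G1/S and DNA replication none passed the threshold, but 44 had a positive log2 change and 14 were separated upward, none downward. Their median was 0.41, made of 0.58 within numbers 2 and 3 and -0.08 within number 1. PCNA, the sliding clamp of DNA replication, had 206, 265 and 265 FPKM in starved libraries, against 180.3, 143.5 and 158.5 FPKM in control libraries (log2 change 0.60, adjusted p = 0.281, limma). MCM2, a subunit of the replicative helicase, had 41.1, 38.2 and 43.2 FPKM in starved libraries, against 56.8, 22.8 and 21.2 FPKM in control libraries, with control library 1 above all others. CCNE1, the cyclin of S phase entry, had log2 changes of 1.12 within numbers 2 and 3 and -0.36 within number 1, and CCND1, the cyclin that answers to growth factors, had 0.05 and 0.21. Of 49 tested genes of G2/M and mitosis none passed, 8 were separated upward and 1 downward, with medians of 0.25 over all libraries, 0.43 within numbers 2 and 3 and -0.06 within number 1. MKI67, the proliferation antigen, had 17.4, 9.49 and 8.11 FPKM in starved libraries, against 15.95, 9.83 and 9.88 FPKM in control libraries. CDKN1B, the inhibitor p27 that accumulates in resting cells, had 19.8, 17.0 and 15.4 FPKM in starved libraries, against 14.9, 4.68 and 5.10 FPKM in control libraries (log2 change 1.16, adjusted p = 0.312, limma). TXNIP, a glucose-responsive inhibitor of glucose uptake, had 142, 66.0 and 67.5 FPKM in starved libraries, against 53.3, 10.7 and 11.4 FPKM in control libraries (log2 change 2.12, adjusted p = 0.279, limma).

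Genes of the cilium itself were mostly of low level, and their medians lay near that of all genes. Intraflagellar transport carries cargo along the cilium and the BBSome loads membrane proteins onto it; of 30 tested genes of these complexes none passed, 6 were separated upward and 1 downward, beside 13.0% and 4.89% of all tested genes. Their median log2 change was 0.07, beside 0.08 for all tested genes, and its sign turned when each library was centred on its median. IFT20, the transport subunit that also sits at the Golgi, had 2.87, 4.34 and 3.50 FPKM in starved libraries, against 2.90, 2.97 and 3.175 FPKM in control libraries. KIF3A, the motor subunit of outward transport, had 1.63, 1.41 and 1.29 FPKM in starved libraries, against 1.21, 1.79 and 1.85 FPKM in control libraries. IFT52, a core transport subunit, had separated groups, with 14.5, 15.6 and 15.5 FPKM in starved libraries, against 10.9, 11.8 and 12.2 FPKM in control libraries (log2 change 0.36, adjusted p = 0.354, limma). Of 37 tested genes of the transition zone, basal body and ciliary membrane none passed, 5 were separated upward and 3 downward, shares near the 13.0% and 4.89% of all tested genes, with a median of 0.08 whose sign also turned with median centring. The basal body protein CEP164 had a log2 change of -0.08. Among 15 tested genes of cilium disassembly none passed, and NEDD9, the scaffold that activates the disassembly kinase AURKA, had 5.92, 5.685 and 6.16 FPKM in starved libraries, against 5.695, 14.1 and 14.7 FPKM in control libraries. Of the Hedgehog pathway, which signals through the cilium, 7 of 21 genes were tested and none passed, and the inhibitor SUFU had a log2 change of 0.40.

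Lipid, amino acid and growth factor response genes lay mostly lower in starved cultures. Of 27 tested genes of cholesterol synthesis and uptake none passed, 11 were separated downward and 1 upward, and the median log2 change was -0.36, with -0.55 within numbers 2 and 3 and -0.04 within number 1. HMGCS1, which commits acetyl groups to the sterol pathway, had 21.4, 19.5 and 20.9 FPKM in starved libraries, against 23.3, 75.4 and 84.1 FPKM in control libraries (log2 change -1.32, adjusted p = 0.314, limma). SCD, which desaturates fatty acids, had 274, 66.4 and 69.9 FPKM in starved libraries, against 199.9, 275 and 284 FPKM in control libraries, and the 20 tested genes of fatty acid synthesis had a median of -0.19. Of 29 tested ATF4 and amino acid response genes none passed, 8 were separated downward and 2 upward, with a median of -0.32. ATF4 itself, the transcription factor of that response, had 98.5, 128 and 122 FPKM in starved libraries, against 118, 236 and 234 FPKM in control libraries. Of 33 tested immediate-early and SRF target genes none passed, and the median was -0.32, with -0.38 within numbers 2 and 3 and -0.005 within number 1. The filamin FLNA, an actin crosslinker, had 297, 236 and 244 FPKM in starved libraries, against 443, 340 and 309 FPKM in control libraries, separated downward with a log2 change of -0.48.

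The remaining lists held no gene past the threshold. Antigen presentation had a median log2 change of 0.29 over 15 tested genes, 6 separated upward and none downward. HLA-B, a class I antigen, had 29, 41.6 and 39.8 FPKM in starved libraries, against 16.9, 8.62 and 7.54 FPKM in control libraries (log2 change 1.72, adjusted p = 0.105, limma), and reads of HLA genes can be shared among alleles and paralogs. Interferon response genes had a median of 0.28 over 31 genes, with 2 separated in each direction. Their median was 0.46 within numbers 2 and 3 and -0.03 within number 1. IFI6, an interferon-induced mitochondrial protein, had a log2 change of 1.70. Of 45 autophagy and lysosome genes 13 were separated upward and 3 downward, with a median of 0.30. The lysosomal protease CTSL had 55.3, 59.9 and 57.4 FPKM in starved libraries, against 44.6, 38.9 and 38.5 FPKM in control libraries (log2 change 0.49), and the autophagy receptor SQSTM1 had 73.9, 100.4 and 102 FPKM in starved libraries, against 115, 155 and 142 FPKM in control libraries (log2 change -0.58). NRF2 targets (27 tested), endoplasmic reticulum chaperones (22), genes of insulin-like growth factor signalling (10) and FOXO or MondoA targets (25) had medians of -0.17, -0.03, -0.12 and 0.10, and the signs of the last 3 turned when single libraries or both of number 1 were left out. The insulin-like growth factor list had -0.40 within numbers 2 and 3 and 0.31 within number 1. The FOXO or MondoA list had -0.24 and 0.39. Of 13 mitochondrially encoded messenger RNAs 9 were separated downward and none upward, with a median of -0.43. The small nuclear, nucleolar and 7SL RNAs had a median of 0.76 over 9 genes, with control library 3 low in RN7SK (4.615 FPKM, against 54.97 to 65.7 FPKM in the other 5 libraries), and the sign of that median turned without control library 3. It was 1.46 within numbers 2 and 3 and -0.43 within number 1. The replication-dependent histones had a median of 0.79 over 10 genes. These RNAs lack long tails of adenines, and the part of library preparation in these values was not tested.

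**Figure D3:**
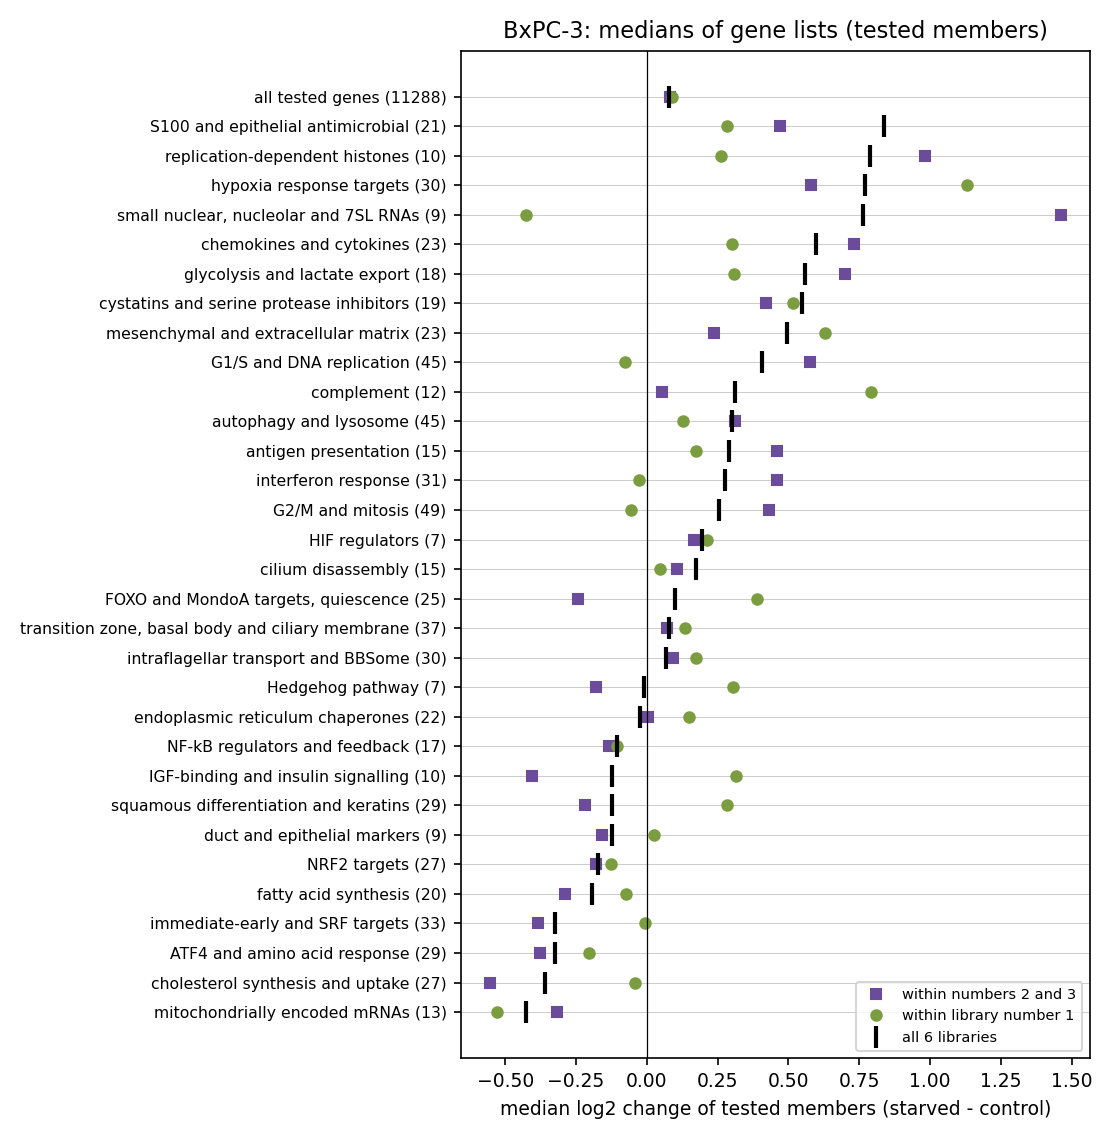
For each list with at least 5 tested members, the median log2 change (starved minus control) is drawn within numbers 2 and 3 (squares), within number 1 (circles) and over all 6 libraries (bars), with the number of tested members in brackets. The HIF targets have a median of 0.58 within numbers 2 and 3 and 1.13 within number 1, whereas the G1/S list has 0.58 and -0.08.

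Many genes had another log2 change within numbers 2 and 3 than within number 1, where each group has 1 library. The difference between the change within numbers 2 and 3 and the change within number 1 passed an adjusted p of 0.05 for 3082 genes (limma, Benjamini-Hochberg), 27.3% of those tested, 1429 with a positive and 1653 with a negative difference (12.7% and 14.6%). The changes had opposite signs for 2562 of the 3082. Among the 14 genes called over all 6 libraries, AC005324.3 alone showed such a difference (-1.09). By sign, 6061 of all tested genes (53.69%) had opposite signs in the sets, although the median change of all genes was 0.08 within numbers 2 and 3 and 0.09 within number 1. This test leaves 2 residual degrees of freedom, so its p-values rest on the spread between libraries 2 and 3, and whether those are separate cultures is not stated in the labels. How far the change within number 1 would repeat was not tested.

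**Figure D4:**
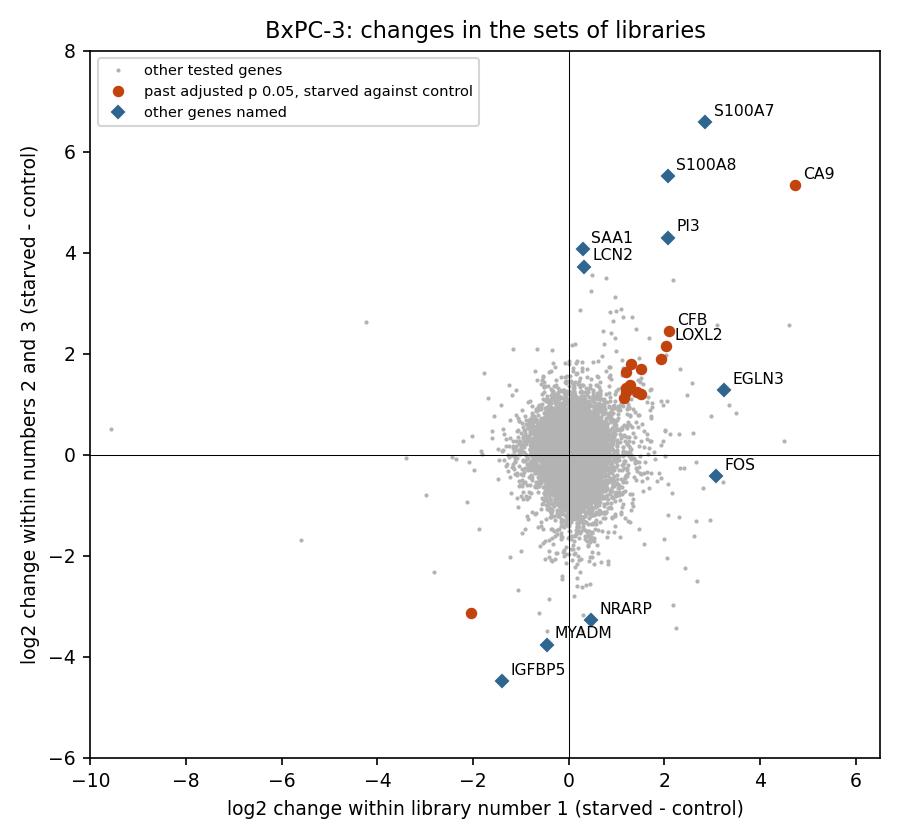
Each tested gene is placed by its log2 change (starved minus control) within number 1 on the horizontal axis and within numbers 2 and 3 on the vertical axis, with the 14 genes past the threshold in orange and other named genes as blue diamonds. The orange points lie in the quadrants where both changes have the same sign, which follows from their separated groups. SAA1 and LCN2 lie near 0 on the horizontal axis, and FOS lies at -0.42 in numbers 2 and 3 and at 3.08 in number 1.

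Among the genes with the clearest positive difference were acute phase and mucosal defence genes, beside genes of other kinds. SAA1, serum amyloid A, had 50.1, 272 and 259 FPKM in starved libraries, against 40.8, 15.75 and 13.9 FPKM in control libraries, a log2 change of 4.07 within numbers 2 and 3 and of 0.29 within number 1 (adjusted p of the difference = 0.00812, limma). LCN2, the siderophore-binding lipocalin, had 111, 766.5 and 644 FPKM in starved libraries, against 88.7, 51.4 and 53.2 FPKM in control libraries, with changes of 3.72 and 0.32. CSF3, the granulocyte growth factor, had 3.12, 30.4 and 27.8 FPKM in starved libraries, against 1.97, 2.30 and 2.07 FPKM in control libraries. In these 3 genes the libraries of number 1 were near each other, and starved libraries 2 and 3 stood above all others. PIGR, the receptor that carries antibodies across epithelia, CDT1, a licensing factor of DNA replication, and MED29, a Mediator subunit, had differences of 2.06, 2.08 and 2.10, each with control libraries 2 and 3 as the low pair. The transcription factor subunit TAF7 had 0.447, 18.9 and 16.8 FPKM in starved libraries, against 14.2, 18.1 and 19.3 FPKM in control libraries, so that starved library 1 alone was low.

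The clearest negative differences included growth factor-responsive and epithelial genes. FOS, an immediate-early transcription factor that serum induces, had 89.3, 57.3 and 60.9 FPKM in starved libraries, against 9.71, 78.8 and 79.9 FPKM in control libraries, and control library 1 alone was low. FOSB, its relative, had 4.66, 5.99 and 5.84 FPKM in starved libraries, against 2.18, 31.0 and 29.2 FPKM in control libraries. NRARP, a feedback inhibitor of Notch, had 18.7, 10.15 and 10.9 FPKM in starved libraries, against 13.3, 113 and 108 FPKM in control libraries. For NRARP, as for RGCC (a regulator of the cell cycle), SLC30A1 (a zinc exporter) and FOSB, control libraries 2 and 3 stood above all 4 others. KRT4, a keratin of mucosal epithelium, and MALL, a raft protein, had differences of -3.82 and -2.93. The imprinted long noncoding RNA H19 had 91.2, 19.6 and 16.5 FPKM in starved libraries, against 14.05, 57.4 and 55.8 FPKM in control libraries, and its changes were -1.60 within numbers 2 and 3 and 2.62 within number 1. Over all tested genes, 12.7% had a positive and 14.6% a negative difference past the threshold. Among lists, G1/S genes gave 24 positive and no negative differences of 45, cytokines 12 and 2 of 23, cholesterol genes 1 and 14 of 27, and immediate-early and SRF targets 2 and 16 of 33. Control library 1 thus differed from control libraries 2 and 3 in the serum-responsive genes FOS, FOSB and DUSP1, the last a phosphatase of MAP kinases with 14.6 FPKM in control library 1 and 117 and 115 FPKM in control libraries 2 and 3.

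**Figure D5:**
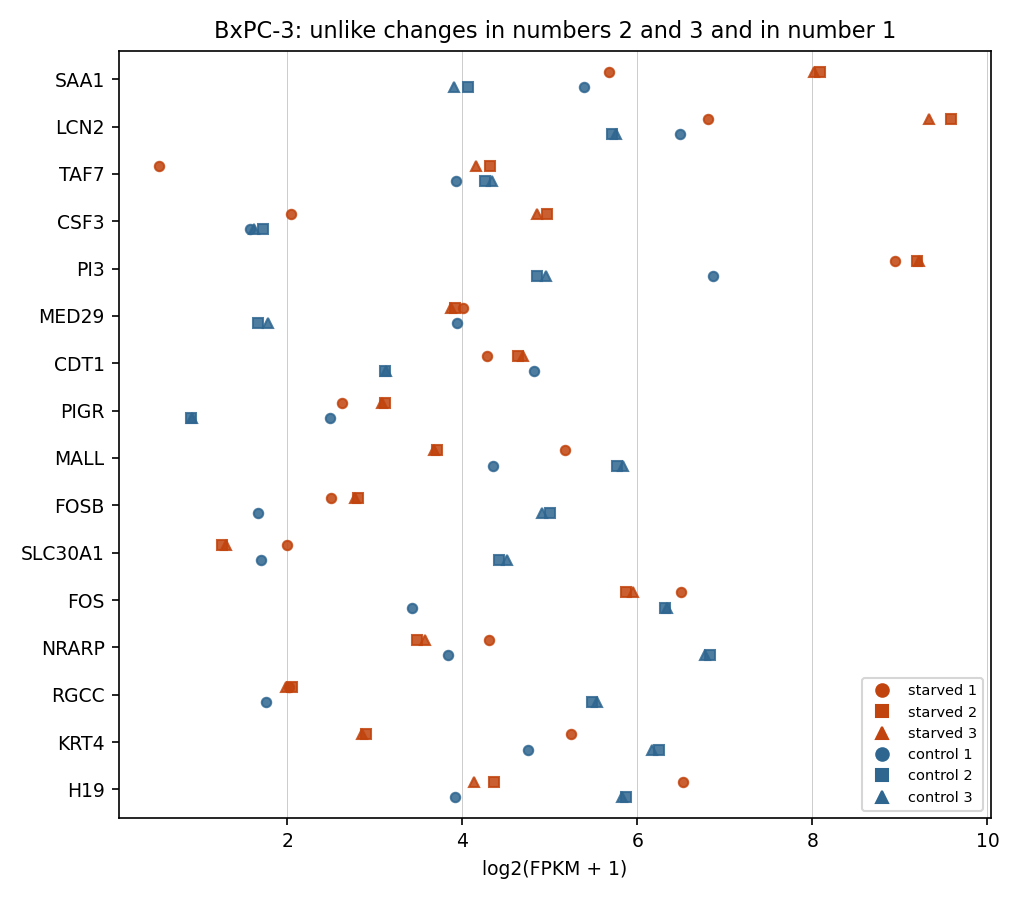
The 16 genes with the smallest p for a difference between the change in numbers 2 and 3 and the change in number 1, 8 of each sign, are drawn on log2(FPKM + 1), 1 point per library, starved libraries in orange and control libraries in blue. Libraries 2 and 3 of a group lie close to each other, and library 1 (circles) often lies between or outside them, as for FOS, where control library 1 had 9.71 FPKM and control libraries 2 and 3 had 78.8 and 79.9 FPKM.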

How the data were processed

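Per the labels' protocols, TRIzol was used for total RNA and Illumina's standard procedure for the libraries. FastQC, StringTie and GRCh38 are named in the submitters' processing notes; which aligner, annotation and strand setting were used is not given in the sources used here. Values the authors deposited are log2 of FPKM plus 1 per gene and library, per the file headers and the values, and FPKM was recovered by undoing the offset. No read counts are known, so no counting interval is given; low-value steps gave relative depth only, and whole reads were not recovered. Coordinates come from GENCODE release 29 (found for 99.73% of tested genes) and promoter windows from RefSeq.

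The 6 BxPC-3 libraries were fitted on log2(FPKM + 1) in R 4.3.3, using limma 3.58.1 without trend, two-sided, with Benjamini-Hochberg adjustment over 11288 genes at 0.05. A second model added the interaction of group with number set (2 and 3 against 1). The models were also run on simulated data with independent noise in every library. Real libraries 2 and 3 of a group resembled each other more than library 1. Those runs therefore cannot show whether the p-values hold here. Same-numbered libraries had correlated deviations of 0.150, 0.104 and 0.0548, so the numbers were not taken to pair them.

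The members and the gene lists were chosen with earlier results of these data known. Genes named by rule were the called genes whose higher group averaged 5 FPKM or more and that carry an established symbol (no clone, LINC or small RNA identifiers), filled up to 14 per direction with separated genes of unadjusted p under 0.05 and the same sign in both number sets; for lists the called, the most abundant and preset key members; and 8 per sign for the interaction. CST1, WFDC5, ALPPL2, COL5A1, AC005324.3 and other list members given as examples were chosen after their values were seen. Alternatives covered the pseudocount, filters, variance model, scaling, all 12 libraries, the replicate block, the number set and each library left out.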

Additional observations from a re-analysis of the deposited data

Results flagged for a closer look

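The change under starvation within numbers 2 and 3 differed from that within number 1 for 3082 genes by the test of that difference (limma, Benjamini-Hochberg). Among the genes with the smallest p, the difference on the log2 scale, numbers 2 and 3 minus number 1, was 3.785 for SAA1, 3.405 for LCN2, 3.33 for TAF7 and 2.769 for CSF3. It was 2.227 for PI3, 2.103 for MED29, 2.075 for CDT1 and 2.06 for PIGR. It was -4.213 for H19, -3.82 for KRT4, -3.765 for RGCC, -3.742 for NRARP, -3.495 for FOS and -3.478 for SLC30A1. It was -2.997 for FOSB and -2.932 for MALL. Of the 14 genes called over all 6 libraries, AC005324.3 had such a difference, at -1.086. The p-values rest on the spread between libraries 2 and 3 of each group, and whether library 1 was grown, harvested or prepared apart from them was not tested, since the labels do not say.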

How the results depend on the processing

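The count of 14 genes called over all 6 libraries stayed within 1.5 times that in some settings, though not always with the same genes. The count was 19 with no filter on low values (8 of the 14 shared) and 14 with a trended robust variance (all 14 shared). The count was 13 with quantile normalization (11 shared) and 13 with median centring (12 shared). It was 27 with a pseudocount of 0.1, 1 with a mean FPKM of at least 5, 4 with a common total without mitochondrial genes, 45 (40 higher, 5 lower, 8 shared) with all 12 libraries in one fit, and 56 (48 higher, 8 lower, all 14 shared) with the number set as a covariate. Leaving out each library in turn gave 1 to 880 genes. The replicate block gave 1 gene; libraries of numbers 1 and 2 correlated best with their own number (0.150 and 0.104) and those of number 3 with number 2, a hint from the data that does not pair all libraries. Among alternatives chosen after seeing the data, leaving out both libraries of number 1 gave 4763 genes (2816 higher, 1947 lower, all 14 shared), and averaging libraries 2 and 3 gave 1. CA9 kept its call in 17 of 18 settings and lost it in the fit of all 12 libraries (adjusted p = 0.1934, limma). The other 13 genes each lost theirs without starved library 2 or 3, without control library 2 or 3, with the replicate block, and with libraries 2 and 3 averaged; the cause was not tested. No called gene turned its direction. The count of 3082 genes that differed between number sets ranged from 2251 to 3328, out of unlike numbers of tested genes. It was 2251 of 5967 with a mean FPKM of at least 5 and 3328 of 11288 with a trended robust variance. With no filter it was 3036 of 32347, and 1472 of the 3082 were shared. Of 426 recomputed list medians, 27 moved and 23 had another sign. With 3 libraries a group, an exact permutation test of a single gene cannot give p below 0.1, and unknown depth limits statements on low levels.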
